A study of Mus musculus with 22 samples.

Results

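The genes described here are 8 genes, 7 of the insulin-like growth factor (IGF) axis and Meg3: the ligands Igf1 and Igf2, the receptors Igf1r and Igf2r, the binding proteins Igfbp3, Igfbp5 and Igfbp7, and the long noncoding RNA Meg3, imprinted like Igf2 and Igf2r but at another locus. They were chosen by name, with earlier results of these data known. Of 10 names in the rule, 8 were row names among the 998 genes of the tables, and Igfbp4 and Igfbp6 were not analysed here. Transcripts were counted in single segmented cells of mouse embryo sections by CosMx spatial molecular imaging, which detects a fixed panel of RNAs by in situ hybridisation. The series asked how loss of the orphan nuclear receptors Nr4a1 and Nr4a2 alters blood stem cell formation in the embryo. The Knockout group was 13 sections, 10 µm thick, of an embryo at embryonic day 10 with both genes deleted in the germline (Nr4a1-/-Nr4a2-/-). The Wildtype group was 9 sections of an Nr4a1+/+Nr4a2+/+ embryo of the same age. The paper's spatial analysis used more Nr4a1+/+Nr4a2+/+ than Nr4a1-/-Nr4a2-/- sections, and more of the former than the 9 labelled Wildtype here. The sources used here do not explain this difference. Sections are numbered 1 to 13 in Knockout and 14 to 22 in Wildtype. Each genotype was 1 embryo, and sections of an embryo are repeated measurements of it, so every Knockout and Wildtype comparison below is between 2 embryos, and its p-value measures only the spread between sections.

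IGF1 and IGF2 are secreted growth factors that promote growth and survival through the receptor tyrosine kinase IGF1R, and IGF2 is the main growth-promoting ligand of the fetus. IGF2R has no kinase activity, takes IGF2 into the cell and sends it to the lysosome. IGF-binding proteins hold the ligands outside the cell and may restrain or prolong their action. Igf2 is expressed mainly from the paternal allele, whereas Igf2r and Meg3 are expressed mainly from the maternal allele.

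After cells with fewer than 10 transcripts or 10 genes were left out, 21191 Knockout and 16379 Wildtype cells remained. Section totals ran from 169027 to 887896 transcripts in Knockout and from 211614 to 820265 in Wildtype. The 4 slides each held sections of 1 embryo, so slide and embryo cannot be told apart. Knockout section 13 stood apart: its median Pearson correlation with the other Knockout sections over all genes was 0.839, against 0.932 to 0.970 for the other 21 sections with their own embryo. In that section 160 of 998 genes were under 50% of the median of the other Knockout sections, against at most 2 genes in any other section. Its rate per 10000 transcripts was 25.0 for Meg3 and 3.49 for Igf1r, the lowest of all Knockout sections, whereas Igfbp5 (25.97), Igfbp3 (14.3) and Igfbp7 (7.51) were the highest of all Knockout sections there. Values without it are given beside the results that rest on it. The targeted genes did not mark the Knockout sections: Nr4a1 had a log2 difference of -0.05 (adjusted p = 0.716) and Nr4a2 of 0.03 (adjusted p = 0.860) by edgeR's quasi-likelihood test. Set against the average of the 50 least counted genes, Nr4a1 was at 0.967 times in Knockout and 1.00 times in Wildtype, a level too low to show a loss, and Nr4a2 at 1.78 and 1.75 times. Where the probes lie relative to the deleted parts was not given in the sources used here. These counts therefore do not check the genotype labels, on which every direction between the embryos rests.

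A minority of cells were placed in 11 groups by lists of marker genes, called gates below. A cell passed a gate with at least 3 transcripts from at least 2 genes of the list and a share of its transcripts at least 3 times the section's mean share. Cells that passed several gates, 6.98% in Knockout and 7.12% in Wildtype, were put in none, and 67.7% and 67.4% passed no gate. Both kinds count among the other cells below. A strict setting asked for 5 transcripts and 5 times the mean share, and a loose one for 2 and 2 times. These sets are not nested, since cells that passed several gates were taken out under each setting: the loose smooth muscle gate held 293 Knockout cells against 407, and the strict erythroid gate 724 against 657. The members belong to no gate. Each gate was checked against markers that the gating had not used. The endothelial gate was borne out by Eng and Flt1, the epithelial by Krt7 and Cldn4, the smooth muscle by Myl9, the macrophage by Mrc1, the sclerotome (the vertebra-forming part of the somite) by Sox9 and the fibroblast-type mesenchyme by Dcn, all at least 1.3 times higher inside than outside in both embryos. A second marker of 4 of these gates fell short of that limit: in Knockout and Wildtype the ratio was 0.975 and 1.23 for Cd68 (macrophage), 1.39 and 0.878 for Col9a3 (sclerotome), 1.19 and 1.03 for Pdgfra (fibroblast-type mesenchyme) and 1.49 and 1.29 for Actg2 (smooth muscle). The erythroid gate was not borne out, since Slc40a1 was 0.861 and 1.18 times its level in other cells in Knockout and Wildtype. It was kept on its haemoglobin content, which is no check, since the haemoglobin genes are on its own list. With it, 7 gates were kept. Cardiomyocyte, neural progenitor, neuronal and hepatocyte gates were not borne out either. They are left out of the counts below, except where 10 or 11 gates are named. The shares of all genes called in them were 6.94% (neural progenitor) and 3.83% (hepatocyte) inside over outside, and 36.5% (neural progenitor) between the embryos. Gated cells differed from other cells in depth. The median over sections of the median transcripts per cell was 441.5 in the smooth muscle gate, 385.5 in the erythroid gate, 230.5 in the endothelial gate and 127 in the fibroblast-type mesenchyme gate, against 203 to 211 in the cells outside these gates, and its part in the results was not tested.

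The plot of rates by section gives every member in all cells of every section.

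**Figure D1:**
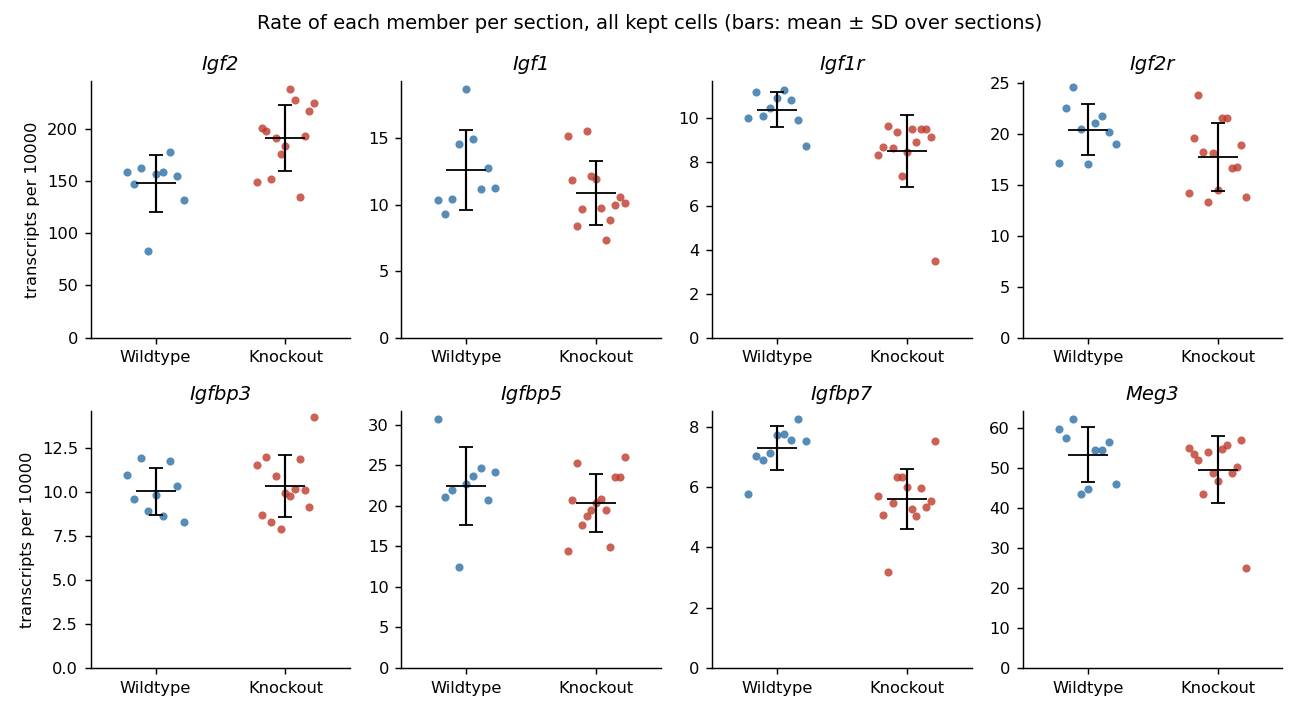
Transcripts of each member per 10000 transcripts of the section (y axis) in all kept cells of the 13 Knockout and 9 Wildtype sections, each point 1 section and each bar the group mean with its SD. Knockout and Wildtype sections overlapped for every member, and Knockout section 13 was lowest of the Knockout sections for Meg3 and Igf1r.

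Igf2, the fetal growth ligand, was higher in the Knockout embryo. Over all cells its rate per 10000 transcripts was lowest at 135, with a median of 193 and a highest value of 238, in the 13 Knockout sections. In the 9 Wildtype sections it was lowest at 82.9, with a median of 157 and a highest value of 178. The groups overlapped, but 9 Knockout sections lay above the highest Wildtype section. The mean was 191 ± 31.8 (SD, n = 13) in Knockout and 148 ± 27.3 (SD, n = 9) in Wildtype. The log2 difference was 0.64 ± 0.14 (SE, adjusted p = 0.00186, edgeR's quasi-likelihood test, Benjamini-Hochberg over 998 genes). In this comparison 12.5% of genes were called, 9.82% higher and 2.71% lower in Knockout. Of the 8 members, Igf2 and Igfbp3 were called higher and 6 were not called. Without Knockout section 13 the Igf2 difference was 0.61 (adjusted p = 0.00190), and without Wildtype section 17, the lowest section of that embryo, it was 0.55 (adjusted p = 0.00156). With library size alone in place of trimmed mean of M-values (TMM) scaling it was 0.37 (adjusted p = 0.00852). Averaged with equal weight over 10 gates it was 0.20 (exact permutation p = 0.155), against 0.35 (exact permutation p = 0.00930) over all cells of those sections. Both are described below, with variants. A difference in summed transcripts cannot tell a change in the number of cells of a type from a change in RNA per cell.

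Igf2 also differed between cell groups. It was higher inside than outside the fibroblast-type mesenchyme gate in 22 of 22 sections, with a log2 difference of 0.79 ± 0.102 (SE, adjusted p = 1.51e-12, edgeR's quasi-likelihood test with section as a block). It was also higher in endothelial cells in 22 of 22 sections, by 0.63 ± 0.0492 (SE, adjusted p = 1.98e-26). The endothelial rate was 254 ± 33.3 in Knockout (SD, n = 13) against 188 ± 32.3 in the other cells, and 225 ± 41.3 in Wildtype (SD, n = 9) against 145 ± 27.1. Smooth muscle cells had a difference of 0.42 ± 0.0924 (SE, adjusted p = 0.00156), which was lost with the loose gate (0.12, adjusted p = 0.428). Igf2 was lower in macrophages, by -0.45 ± 0.0557 (SE, adjusted p = 1.57e-11), and in erythroid cells in all 22 sections, by -1.68 ± 0.158 (SE, adjusted p = 5.66e-10). It was slightly lower in sclerotome cells, by -0.16 (adjusted p = 0.0488), a call that was lost without Knockout section 13 (-0.16, adjusted p = 0.0855), with the strict gate (-0.27, adjusted p = 0.392), with the loose gate (-0.088, adjusted p = 0.427), in Wildtype sections alone (-0.23, adjusted p = 0.180) and in Knockout sections alone (-0.12, adjusted p = 0.499). These tests called 19.2% of genes in the endothelial gate, 44.5% in the erythroid, 10.3% in the macrophage, 8.34% in the smooth muscle, 5.13% in the sclerotome, 7.46% in the fibroblast-type mesenchyme and 6.04% in the epithelial gate.

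Ordered by mean rate, Igf2 was highest in fibroblast-type mesenchyme cells (284 ± 71.0 per 10000 in Knockout and 245 ± 57.1 in Wildtype). In both embryos the lower end of the order was epithelial, sclerotome, macrophage and erythroid. The erythroid rate was 60.5 ± 35.4 in Knockout and 51.6 ± 23.0 in Wildtype. Only the step from macrophage to erythroid exceeded the larger SD of the neighbouring groups, in both embryos. That SD is the spread between sections, not of the difference within a section. The other steps were smaller than it and were not tested within sections.

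Igf1, the other ligand, showed little variation among cell groups. Its rate over all cells was 10.9 ± 2.43 (SD, n = 13) in Knockout and 12.6 ± 2.99 (SD, n = 9) in Wildtype, with a log2 difference of 0.04 (adjusted p = 0.839, edgeR) that turned to -0.22 (adjusted p = 0.114) with library size alone. Its mean rate among the 7 groups lay between 8.91 ± 5.13 in fibroblast-type mesenchyme and 13.5 ± 5.21 in epithelial cells of Knockout. In Wildtype it lay between 11.2 ± 2.97 in endothelial cells and 13.5 ± 2.36 in macrophages. None of the 7 gates passed the test for Igf1. Its erythroid rate, 8.94 ± 3.51 in Knockout and 11.3 ± 3.68 in Wildtype, was close to that of the other groups.

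Igf2r, the clearing receptor for IGF2, was higher in smooth muscle cells than in other cells in 21 of 22 sections, by 0.66 ± 0.0805 on the log2 scale (SE, adjusted p = 2.13e-11, edgeR). The rates inside that gate were 28.1 ± 6.03 in Knockout (SD, n = 13) and 29.9 ± 10.1 in Wildtype (SD, n = 9). It was also higher in fibroblast-type mesenchyme, by 0.69 ± 0.116 (SE, adjusted p = 1.69e-07), in 18 of 22 sections. In erythroid cells it was lower in every section, by -0.84 ± 0.0910 (SE, adjusted p = 6.22e-14). Over all cells Igf2r was 17.8 ± 3.33 in Knockout and 20.4 ± 2.48 in Wildtype, and 6 Knockout sections lay below the lowest Wildtype section. There was no call, and the direction turned with scaling, from 0.08 (adjusted p = 0.663) with TMM to -0.20 (adjusted p = 0.0713) with library size alone.

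Igf1r, the signalling receptor, differed little between cell groups. Its mean rates lay between 5.30 ± 2.47 in erythroid and 9.74 ± 5.46 in smooth muscle cells of Knockout, and between 9.25 ± 3.51 and 12.4 ± 2.57 in Wildtype. It was lower in erythroid cells, by -0.32 ± 0.0945 (SE, adjusted p = 0.00335, edgeR), and was called in no other of the 7 gates. That call was lost with the loose gate (-0.17, adjusted p = 0.323), in Wildtype sections alone (-0.19, adjusted p = 0.230) and with library sizes that leave out gate genes (-0.15, adjusted p = 0.165). Haemoglobin takes a large share of the erythroid total: pooled over Knockout sections, the erythroid Igf1r rate was 5.79 per 10000 of all transcripts and 8.10 per 10000 transcripts of genes in no gate list. Over all cells it was 8.49 ± 1.63 in Knockout and 10.4 ± 0.804 in Wildtype, and 6 Knockout sections lay below the lowest Wildtype section. The log2 difference was -0.01 (adjusted p = 0.970) with TMM scaling and -0.28 (adjusted p = 0.0151) with library size alone. On the latter scale the median over all genes was -0.30, close to the Igf1r value. Without Knockout section 13 the TMM difference was 0.05 (adjusted p = 0.650).

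**Figure D2:**
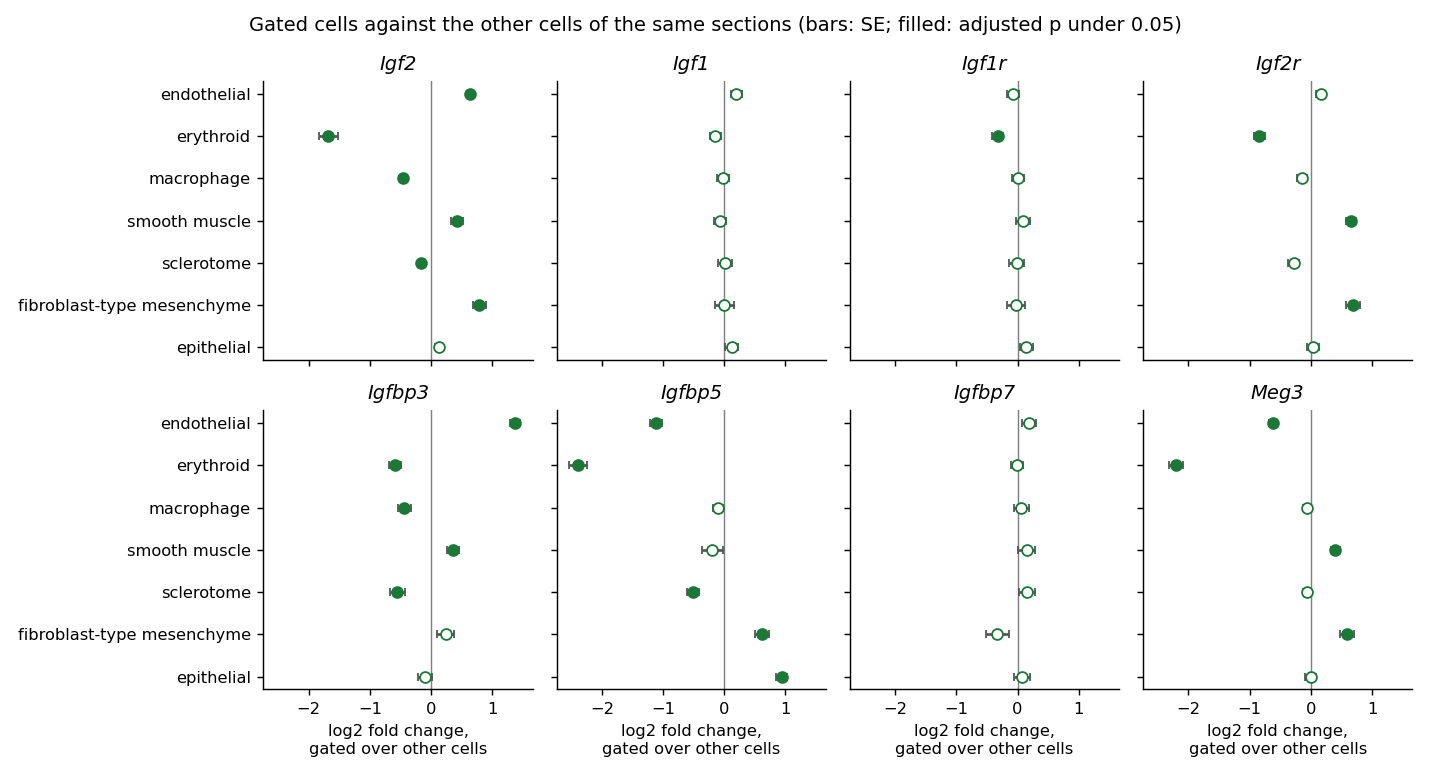
Log2 difference of each member between the cells of a gate and all other cells of the same section, with calls at an adjusted p under 0.05 marked. The 7 gates were borne out by other markers, except the erythroid gate, which was kept on its haemoglobin content. Igfbp3 and Igf2 were higher in endothelial cells, whereas Meg3 and Igfbp5 were lower in endothelial and erythroid cells.

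Igfbp3, a carrier of both ligands, was the member most raised in endothelial cells. Inside the endothelial gate its rate in Knockout sections was lowest at 11.2, with a median of 21.6 and a highest value of 37.9. In the other cells of those sections the values were 7.21, 9.71 and 14.2. In Wildtype sections the endothelial values were 14.5, 25.2 and 29.6, against 7.49, 9.28 and 11.3 in the other cells. The endothelial rate was the higher in 22 of 22 sections, although the ranges inside and outside overlapped in Knockout and did not in Wildtype. The log2 difference was 1.38 ± 0.0857 (SE, adjusted p = 1.51e-27, edgeR). In the order of cell groups, endothelial cells came first in both embryos, and the step to smooth muscle cells, second in both, exceeded the larger SD. Igfbp3 was lower in sclerotome cells by -0.55 (adjusted p = 0.000464), in erythroid cells by -0.59 ± 0.104 (SE, adjusted p = 2.04e-06) and in macrophages by -0.44 ± 0.105 (SE, adjusted p = 0.00121). Its call in smooth muscle cells, 0.36 ± 0.101 (SE, adjusted p = 0.00798), did not hold under the loose gate, where the difference was -0.05 (adjusted p = 0.927). It was also lost in Wildtype sections alone (0.28, adjusted p = 0.648). The macrophage call was lost with the loose gate (-0.27, adjusted p = 0.0727), the strict gate (-0.56, adjusted p = 0.437) and in Wildtype sections alone (-0.36, adjusted p = 0.421). The sclerotome call was lost with the strict gate (-0.83, adjusted p = 0.249) and in Wildtype sections alone (-0.49, adjusted p = 0.308).

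**Figure D3:**
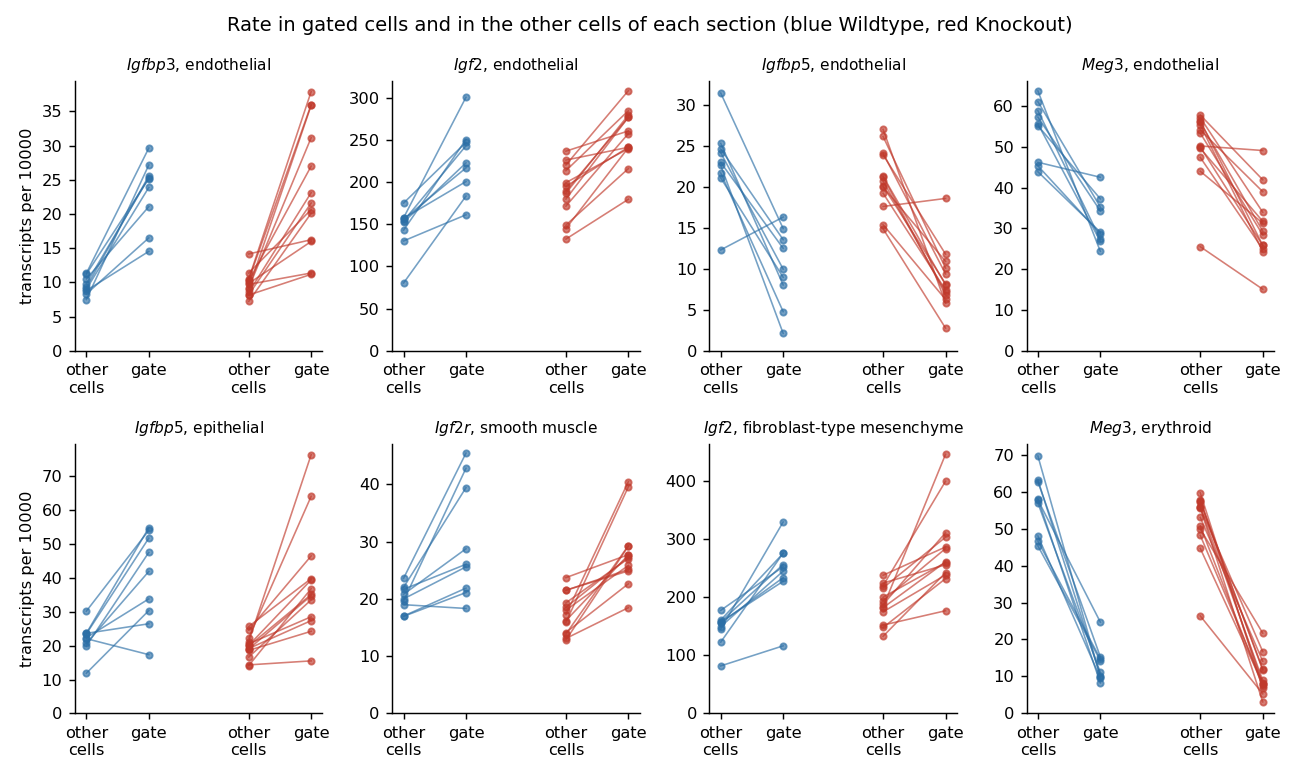
Rate per 10000 transcripts inside and outside a gate, for 8 pairs of member and gate, with 1 line per section (blue Wildtype, red Knockout). Igfbp3 and Igf2 rose from other cells to endothelial cells in 22 of 22 sections, Meg3 fell in 22 of 22, and Igfbp5 was higher in epithelial cells in 21 of 22.

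Over all cells Igfbp3 was 10.3 ± 1.75 in Knockout (lowest 7.90, median 10.1, highest 14.3) and 10.0 ± 1.32 in Wildtype (lowest 8.31, median 9.82, highest 11.9). The groups overlapped. With TMM scaling the log2 difference was 0.31 ± 0.10 (SE, adjusted p = 0.0382, edgeR). With library size alone the difference was 0.04 (adjusted p = 0.689). The call was also lost with slide as a random block (adjusted p = 0.108) and in 9 of 22 fits that each left out 1 section, namely Knockout sections 1, 3, 9 and 10 and Wildtype sections 15, 17, 18, 19 and 22 (adjusted p = 0.0541 to 0.0897).

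Igfbp5, a binding protein also found in the extracellular matrix, was low in endothelial cells and high in epithelial cells. It was higher in epithelial cells in 21 of 22 sections, at 38.6 ± 16.2 in Knockout and 39.7 ± 13.4 in Wildtype, with a log2 difference of 0.94 ± 0.0882 (SE, adjusted p = 2.63e-16, edgeR). Fibroblast-type mesenchyme was also higher, by 0.62 ± 0.116 (SE, adjusted p = 2.98e-06). It was lower in endothelial cells in 20 of 22 sections, by -1.12 ± 0.0932 (SE, adjusted p = 5.74e-20), with rates of 8.72 ± 3.80 in Knockout and 10.1 ± 4.72 in Wildtype. Sclerotome cells were lower by -0.51 (adjusted p = 4.26e-06) and erythroid cells by -2.39 ± 0.150 (SE, adjusted p = 1.63e-15), the first of which was lost with the strict gate (-0.72, adjusted p = 0.0731), the loose gate (-0.21, adjusted p = 0.494) and in Wildtype sections alone (-0.37, adjusted p = 0.212). With gate genes left out of the totals, the highest Igfbp5 rate among the 7 groups, pooled over sections, was 10.7 times the lowest in Knockout and 6.73 times in Wildtype. Over all cells it was 20.4 ± 3.57 in Knockout and 22.5 ± 4.80 in Wildtype, with no call (0.12, adjusted p = 0.596), and the direction turned to -0.15 (adjusted p = 0.251) with library size alone.

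Igfbp7, a secreted protein of the same family with low affinity for IGFs, was not called in any of the 7 gates. Its rates were between 4.15 ± 3.84 and 6.72 ± 2.64 among the groups of Knockout and between 5.07 ± 3.15 and 8.90 ± 3.03 among those of Wildtype. Pooled over sections it was 2.39 times the average of the 50 least counted genes in Knockout and 2.59 times in Wildtype, and that average was itself 2.30 and 2.78 per 10000. Over all cells it was 5.60 ± 0.985 in Knockout and 7.29 ± 0.715 in Wildtype, and 8 Knockout sections lay below the lowest Wildtype section. The log2 difference was -0.12 (adjusted p = 0.401, edgeR) with TMM scaling and -0.39 (adjusted p = 0.000863) with library size alone. Library size alone moved the median of all genes to -0.30, from -0.03 with TMM, and turned the share of calls that were higher from 78.4% to 7.46%.

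Meg3, an imprinted long noncoding RNA, was lower in endothelial cells than in other cells in 22 of 22 sections, by -0.61 ± 0.0628 on the log2 scale (SE, adjusted p = 3.02e-17, edgeR). The endothelial rate was 30.8 ± 8.74 in Knockout and 31.7 ± 5.92 in Wildtype. It was lower still in erythroid cells, by -2.20 ± 0.118 (SE, adjusted p = 5.99e-28), at 10.2 ± 5.05 in Knockout and 13.1 ± 5.03 in Wildtype. In fibroblast-type mesenchyme it was higher by 0.59 ± 0.109 (SE, adjusted p = 2.22e-06), and in smooth muscle cells by 0.40 ± 0.0703 (SE, adjusted p = 2.04e-06). Ordered by mean rate, the endothelial and erythroid groups were lowest in both embryos, and the step between them exceeded the larger SD.

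Over all cells Meg3 did not pass the test between the embryos. Its rate ran from 25.0 through a median of 51.97 to 57.1 in Knockout and from 43.5 through 54.5 to 62.3 in Wildtype, with a mean of 49.6 ± 8.41 (SD, n = 13) against 53.3 ± 6.88 (SD, n = 9). The log2 difference was 0.17 (adjusted p = 0.401, edgeR), and 0.22 (adjusted p = 0.149) without Knockout section 13. With library size alone the direction turned, to -0.10 (adjusted p = 0.403).

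Over the 7 gates, 24 of 56 pairs of member and gate were called, 11 higher and 13 lower inside the gate. Over all genes 14.4% of pairs were called, 7.28% higher and 7.15% lower. The erythroid gate, not borne out, gave 443 of these 1003 calls. The shares do not rest on like counts: by pooled counts the members ranked from 5 (Igf2) to 457 (Igfbp7) of 998 genes in Knockout. In Wildtype they ranked from 4 to 402. The interaction of gate and embryo, which tests directly whether a member stood out by a different amount in the embryos, was called for 0 of 88 pairs over all 11 gates by edgeR's quasi-likelihood test, with 10 at an unadjusted p under 0.05. Over all genes 0.311% of pairs were called by that test. The lowest adjusted p of a member was 0.0977, for Igfbp3 in the neural progenitor gate, which was not borne out. Among the 7 gates kept the lowest was for Igf2 in endothelial cells (-0.29, unadjusted p = 0.000556, adjusted p = 0.110).

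Within the gates, Knockout and Wildtype cells were compared for 49 pairs that passed the filter on low counts, of 56 possible. Igfbp5 did not pass it in erythroid cells, Igfbp3 and Igfbp7 in sclerotome cells, Igf1r, Igfbp3 and Igfbp7 in fibroblast-type mesenchyme, and Igfbp7 in epithelial cells. Only 3 pairs were called, all in sclerotome cells, a gate in which 25.1% of genes were called. The share was 6.41% in endothelial, 3.59% in erythroid, 5.16% in macrophage, 5.69% in smooth muscle, 0% in fibroblast-type mesenchyme and 3.87% in epithelial cells. Igf2 was higher in Knockout sclerotome cells by 0.46 ± 0.131 on the log2 scale (SE, adjusted p = 0.00503, edgeR), at 176 ± 31.2 against 128 ± 32.8 per 10000 transcripts. Igf1r was lower by -0.76 ± 0.233 (SE, adjusted p = 0.00964), at 6.77 ± 2.83 against 12.4 ± 2.57. Igf2r was lower by -0.64 ± 0.188 (SE, adjusted p = 0.00716), at 12.4 ± 4.22 against 20.1 ± 5.54. Knockout and Wildtype sections overlapped for all 3 genes.

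The sclerotome gate also differed between the embryos in a marker that had not been used for gating: Sox9, a regulator of cartilage, was 46.7 per 10000 transcripts in Knockout and 22.7 in Wildtype. Outside the gate Sox9 was also higher in Knockout, at 15.6 against 10.6. Its part in these differences was not tested. With the loose gate the Igf1r difference was -0.43 (adjusted p = 0.164) and the Igf2r difference -0.10 (adjusted p = 0.808). The Igf2 estimate was above 0 in all 7 gates, from 0.18 in fibroblast-type mesenchyme to 0.70 in erythroid cells, and passed the test in sclerotome cells alone.

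**Figure D4:**
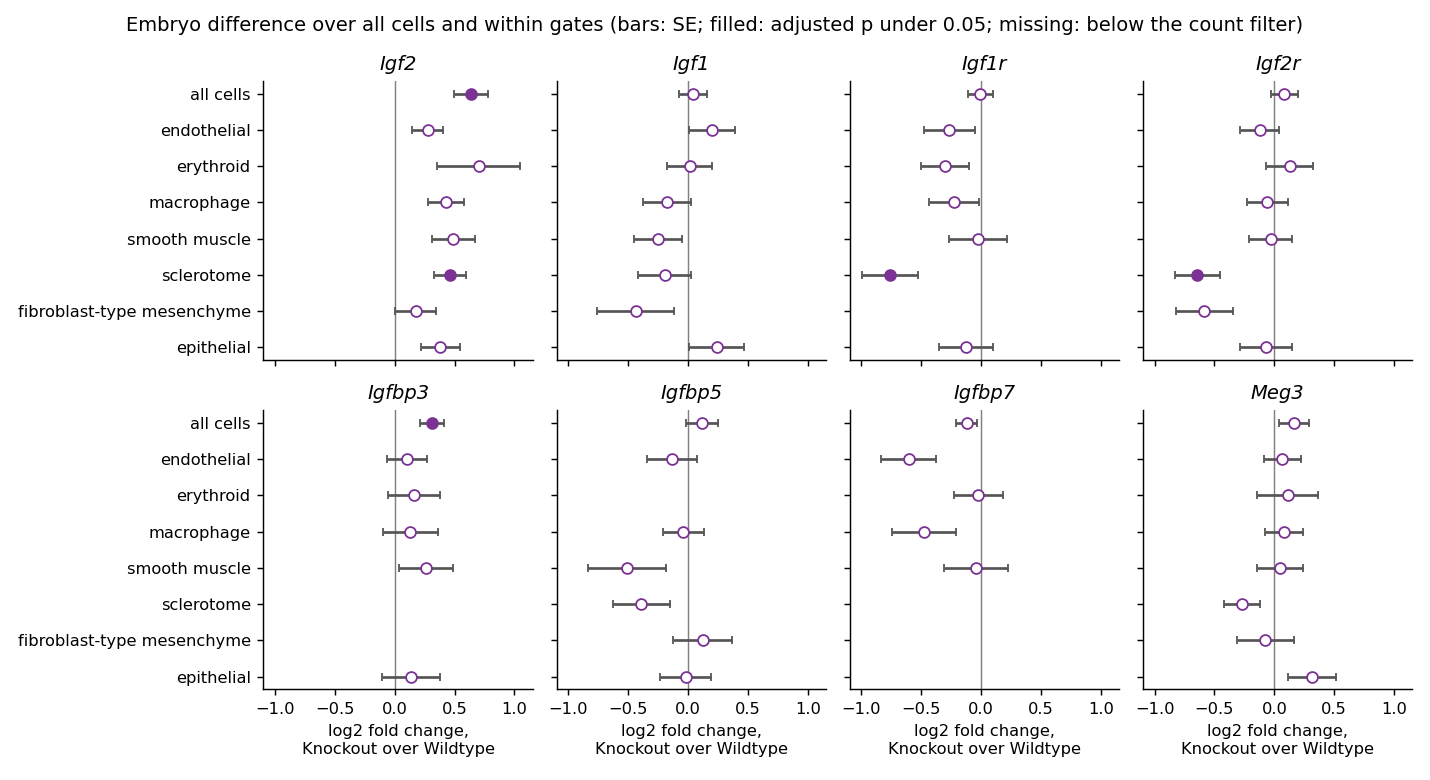
Log2 difference between the Knockout and Wildtype embryos for each member, over all cells and within each gate, with error bars of 1 SE and filled points for an adjusted p under 0.05. Igf2 lay above 0 over all cells and in the 7 gates, at 0.64 over all cells, and the calls within gates were those of Igf2, Igf1r and Igf2r in sclerotome cells.

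To give each gated group the same weight in every section, the log2 rate of each section was averaged with equal weight over 10 gates, in the 20 sections with at least 10 cells in each (11 Knockout and 9 Wildtype, without Knockout sections 3 and 13). Cells in no gate or several gates did not enter it, and 3 of the 10 gates were left out of the counts above. The erythroid gate, kept on haemoglobin alone, is among the other 7. Rates here are per total transcripts, on which scale the median over all genes was -0.28 between the embryos. Igf2 was the only member above 0, by 0.20 ± 0.131 (SE, p = 0.155, two-sided exact permutation test over 167960 splits), against 0.35 (exact permutation p = 0.00930) over all cells of the same sections. Variants chosen after the data were seen gave larger values. Over the 7 gates kept, on the same scale, Igf2 was 0.31 (exact permutation p = 0.00448). Over the 10 gates, after the section's median over all genes was taken off, it was 0.49 (exact permutation p = 0.00279). Igfbp5 (-0.37, exact permutation p = 0.00729), Igfbp7 (-0.36, p = 0.00508), Igf2r (-0.31, p = 0.0109), Igf1r (-0.27, p = 0.0117) and Igfbp3 (-0.20, p = 0.0294) were below 0. For Igfbp3 the difference was -0.12 over the 7 gates kept (exact permutation p = 0.194) and -0.026 without standardising (exact permutation p = 0.761). Without standardising, Igfbp5 was -0.19 (exact permutation p = 0.157). Relative to the section's median those 5 lay between -0.07 and 0.10, none with an exact permutation p under 0.05. In all 32 such tests were run, 4 measures of 8 members, without correction.

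Related genes were counted from lists. Of 7 further insulin and IGF pathway genes (Ins1, Insr, Akt1, Mtor, Srebf1, Fasn and Slc2a1), 1 was called higher in Knockout and none lower, with a median log2 difference of 0.29 against -0.03 over all genes. The called gene was Fasn, fatty acid synthase, at 0.79 (adjusted p = 0.000578, edgeR). Of 4 imprinted genes, Igf2 alone was called. Neither of the tested noncoding RNAs, Meg3 and Carmn, was called. Of 5 p53-related genes, Trp53 (0.50, adjusted p = 9.88e-05) and Bax (0.34, adjusted p = 0.0112), which promotes cell death, were called higher, and the list's median was 0.01. Over all genes 9.82% were called higher, and shares of lists this small are read as counts only.

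The genes most like each member over the 11 gates were named by the Pearson correlation of the log2 rate, a description over 11 points that share sections and total counts. Igf2 was most like Serpinh1 (0.963), a collagen chaperone, Mmp14 (0.942), a membrane metalloproteinase, and Cald1 (0.917), caldesmon. Igf2r was most like Fn1 (0.941), fibronectin, Cald1 (0.920) and Tpm1 (0.916), a tropomyosin. Igfbp3 was most like Col4a1 (0.890), a basement membrane collagen, Itga5 (0.886), an integrin chain, and Calcrl (0.862), an adrenomedullin receptor. Meg3 was most like Vcan (0.874), Dnmt3a (0.844) and Taz (0.831). Igfbp5 was most like Tgfbr1 (0.843), Acvr2a (0.838) and Pdgfc (0.835). Igf1, Igf1r and Igfbp7 varied little over the gates, with an SD of the log2 rate of 0.10, 0.10 and 0.22, so their nearest genes (Cd69, Th and Arhgdib for Igf1, Bmpr1a, Erbb2 and Bmp5 for Igf1r, Clec7a, Cd209e and Cd83 for Igfbp7) are named only.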

How the data were processed

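Transcript counts per cell and gene (CosMx spatial molecular imaging, 998 genes) were deposited by the authors for 22 sections, 13 Knockout and 9 Wildtype, unnormalized. The labels call the tissue formalin-fixed in 1 field and fresh frozen in another, and the methods say fresh frozen. The authors' selection of the aorta region, area filter and negative probes were not used here. Cells with at least 10 transcripts and 10 genes were kept, 37570 of 37575. Of the cell names, 3410 occur in more than 1 section, since numbering restarts. Slides were read from the file names. Rates are transcripts per 10000 transcripts of the section or gate.

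Section sums of the counts, of all cells or inside and outside a marker gate, were tested with edgeR 4.0.16 (R 4.3.3, limma 3.58.1, TMM factors, filterByExpr, robust quasi-likelihood fit), with section as a block for gates, at an adjusted p of 0.05. Composition-standardised rates (pseudocount 0.5) had exact permutation tests (NumPy 2.4.6). The fits were tested on simulated data. The members, gates and lists were chosen with earlier results of these data known. Genes were named by a written rule: every member, called genes of 4 lists and the 3 genes most like each member. Of the insulin and IGF pathway list, 1 gene is not reported here. Gates were called borne out by a limit of 1.3 set after the values were seen. The erythroid gate did not meet it and was kept on its haemoglobin content. Alternatives tried were DESeq2 1.42.0, other scaling, filters, strict and loose gates, slides and single sections left out. Leaving Knockout section 13 out of the gate fits, and variants of the standardised rates, were chosen after seeing the data. Depth per section (169027 to 887896 transcripts) limits the gates, of which the 7 kept hold as few as 13 cells in a section. SDs cover counting error and section differences alike.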

Additional observations from a re-analysis of the deposited data

Results flagged for a closer look

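Of 64 sets of 9 Wildtype values (8 members in all cells and 7 gates), 9 had a section whose gap to its nearest neighbour, divided by the whole range, exceeded 0.493. Chance gives such a gap in about 1 in 20 sets. Wildtype section 17 accounted for 4 of the 9. There, Igf2 was 82.9 per 10000 transcripts over all cells, against 131 in the next section, and 116 in fibroblast-type mesenchyme, against 227. In the same section Meg3 was 88.0 in epithelial cells and Igf1r was 6.77 in sclerotome cells. Without it the Igf2 difference between the embryos was 0.55 (adjusted p = 0.00156, edgeR) and the Igfbp3 difference 0.28 (adjusted p = 0.0897).

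The other values came from 3 sections. Meg3 was 24.7 in erythroid cells and Igfbp3 was 21.9 in smooth muscle cells of Wildtype section 21. Igfbp5 was 35.4 in macrophages and Igf2r was 76.7 in fibroblast-type mesenchyme of Wildtype section 16. Igf2r was 31.4 in macrophages of Wildtype section 20. The gates behind these values held 24 to 44 cells in the section concerned.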

How the results depend on the processing

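The Igf2 call in the count test over all cells held under every alternative run on that test, with log2 differences of 0.55 to 0.68 when single sections were left out. With library size alone in place of TMM scaling the differences over all cells were 0.37 for Igf2 (adjusted p = 0.00852), -0.10 for Meg3, -0.15 for Igfbp5, -0.22 for Igf1, -0.20 for Igf2r, 0.041 for Igfbp3, -0.28 for Igf1r (adjusted p = 0.0151) and -0.39 for Igfbp7 (adjusted p = 0.000863, edgeR), and 777 genes were called against 125. That scaling called 12 genes between the embryos in the endothelial gate (30 with TMM) and 313 in the erythroid gate (27). Igfbp3 over all cells lost its call with slide as a random block (0.31), without slides K2 (0.19), W1 (0.33) or W2 (0.28) and in cells of no gate (0.27). Leaving out slides gave -0.10 (K1) and -0.11 (W1) for Igf1, 0.035 (K1) and 0.0087 (W2) for Igf1r, -0.0060 (K2) for Igf2r and 0.035 (W2) for Igfbp7, and 70 (K2), 64 (W1) and 76 (W2) called genes. In cells of no gate Igf1 was -0.024 and Igf1r 0.053. Leaving out single sections gave -0.0032 to 0.14 for Igf1, -0.036 to 0.051 for Igf1r and 0.27 to 0.34 for Igfbp3.

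Strict gates called 17 genes in endothelial, 5 in macrophage (21), 7 in smooth muscle (24) and 0 in epithelial cells (12) between the embryos, with 0 calls of members against 3, and no sclerotome value could be had. Loose gates called 51 in endothelial, 32 in macrophage, 2 in fibroblast-type mesenchyme (0) and 33 in epithelial cells, and DESeq2 called 19 in epithelial cells. For gated against other cells, strict gates called 25 genes in macrophage (102), 137 in smooth muscle (83), 16 in sclerotome (51) and 31 in epithelial cells (60). Loose gates called 261 in erythroid (443), 44 in smooth muscle and 159 in fibroblast-type mesenchyme (74), where totals without gate genes called 115. Wildtype sections alone called 111 in endothelial (190), 276 in erythroid, 16 in macrophage, 27 in smooth muscle, 12 in sclerotome, 41 in fibroblast-type mesenchyme and 22 in epithelial cells. Igfbp3 in smooth muscle cells was -0.048 with the loose gate. Over the refits of called pairs of member and gate, 125 kept the call and direction, 18 lost the call and 1 reversed. Without Knockout section 13, Igf2 in sclerotome cells was -0.16 (adjusted p = 0.0855).

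With equal weight on 10 gates, the Igf2 difference was 0.20 (exact permutation p = 0.155). Standardised differences less the section's median were 0.19 for Meg3, -0.074 for Igfbp5, 0.11 for Igf1, 0.49 for Igf2, 0.021 for Igf1r, -0.017 for Igf2r, 0.098 for Igfbp3 and -0.064 for Igfbp7. Not standardised, in the same sections, they were -0.19 for Igfbp5, 0.35 for Igf2 and -0.026 for Igfbp3. Over the 7 gates kept, Igf2 was 0.31 and Igfbp3 -0.12. The causes of these changes were not tested. No paired analysis was possible because replicate numbers only name sections, and sections of different embryos are not paired.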

Other observations

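Endothelial cells were split, after their values were seen, into those with and without a transcript of Dll4 or Hey1, genes of arterial endothelium and Notch signalling. Over the 19 sections with enough cells, Igfbp3 was 33.7 ± 14.3 per 10000 transcripts (SD, n = 19) with either transcript and 17.5 ± 8.39 without, and was higher with it in 17 of 19 sections. Igf2 was 264 ± 44.2 against 221 ± 35.3, higher in 18 of 19. Meg3 was 31.7 against 34.1 and higher in 7 of 19, and Igf2r was 18.7 against 20.2 and higher in 8 of 19. These values are a description, since the split was chosen after they were seen.

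In gates that other markers did not bear out, Meg3 was lower in Knockout than in Wildtype cells of the neural progenitor gate, by -1.13 (adjusted p = 0.00269, edgeR), where 36.5% of genes were called. In the same gate Sox2 was 121.9 per 10000 transcripts in Knockout and 30.5 in Wildtype. Inside over outside, Igf2 was lower in neural progenitor cells by -1.14 (adjusted p = 0.0176) and in hepatocyte-gated cells by -0.22 (adjusted p = 0.0196), whereas Meg3 was higher in hepatocyte-gated cells by 0.28 (adjusted p = 0.0133).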
